A study of Mus musculus with 6 samples.

Results

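The report covers 8 genes of cholesterol synthesis and its feedback control, Srebf2, Insig1, Hmgcs1, Idi1, Fdft1, Sqle, Lss and Cyp51, of the 23412 genes in the table. They were chosen by name as SREBP2 and its targets, a pathway described as altered in Huntington's disease. Their values were not part of the rule, although earlier results of these data were known when the genes were chosen. Although the set was named for synthesis and uptake, it holds genes of synthesis and feedback alone. RNA-seq was carried out on undifferentiated mouse embryonic stem cells (mESCs) of the 129Sv strain to compare the transcriptomes of the lines R1 and HN. R1 is the parental wild type line. HN is labelled Htt-/- and lacks the promoter and exon 1 of both copies of the huntingtin gene. There were 3 libraries per line, and replicate 1, 2 or 3 of each line was collected on the same date, called date 1, 2 or 3 here. Both lines grew without feeder cells on gelatin in medium with serum, LIF and inhibitors of VEGFR/FGFR, MEK and GSK3. Each genotype is represented by 1 line, so that a difference between genotypes and a difference between these lines cannot be told apart.

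Cells make cholesterol from acetyl-CoA through mevalonate, isoprenoid units, squalene and lanosterol. When sterols are low in the endoplasmic reticulum, the escort protein Scap carries the membrane-bound transcription factor SREBP2, the product of Srebf2, to the Golgi, where proteases release its active part to switch on genes of synthesis and uptake. When sterols are high, Insig proteins hold the Scap and SREBP2 complex back, and Insig1 is itself a target gene of the pathway, which closes a feedback loop.

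SREBP2 binds short sterol regulatory elements close to the start of its target genes, usually beside sites for the factors NF-Y and Sp1. The sequences before the start of Srebf2, Hmgcs1 and Insig1 are shown because they are the regulator, the first enzyme of the set in the pathway and the feedback gene, and because all 3 genes differed between the collection dates below. They come from RefSeq on GRCm38.p6, read 5′ to 3′ on the strand of the gene and end before any base transcribed in RefSeq or GENCODE M21. Capitals mark the letters TCACNCCA, the core of a sterol regulatory element, and CCAAT, the NF-Y box, which reads ATTGG on the other strand.
Srebf2, chr15:82147019-82147180, plus strand: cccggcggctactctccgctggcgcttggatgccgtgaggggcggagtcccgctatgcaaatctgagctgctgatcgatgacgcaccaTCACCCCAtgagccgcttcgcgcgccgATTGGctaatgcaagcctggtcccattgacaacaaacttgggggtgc
Hmgcs1, chr13:119690101-119690350, plus strand: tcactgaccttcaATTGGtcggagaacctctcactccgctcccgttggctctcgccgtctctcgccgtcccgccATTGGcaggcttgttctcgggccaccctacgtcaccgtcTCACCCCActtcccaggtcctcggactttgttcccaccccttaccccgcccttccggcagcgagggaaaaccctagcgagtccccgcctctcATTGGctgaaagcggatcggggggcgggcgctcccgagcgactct
Insig1, chr5:28071162-28071362, plus strand: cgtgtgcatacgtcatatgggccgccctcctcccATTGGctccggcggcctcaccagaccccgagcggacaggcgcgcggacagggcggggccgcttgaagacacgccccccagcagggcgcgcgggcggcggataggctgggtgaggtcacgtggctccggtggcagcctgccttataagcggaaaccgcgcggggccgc
The element in Hmgcs1 began 137 bases before the RefSeq start and that in Srebf2 162 bases before it. For Srebf2 and Insig1 the RefSeq start lies further downstream than the end of the stretch shown. A window of 250 bases before the start was at hand for 6 of the 8 genes, and not for Fdft1 and Sqle. On either strand, TCACNCCA stood in the windows of 2 of these 6 genes, Hmgcs1 and Srebf2, and in 3.67% of 32851 windows of all genes. With a closing C (TCACNCCAC, which overlaps the shorter form) it stood in 1 of 6, Hmgcs1, against 1.05% of all windows. The letters CCAAT stood in 6 of 6 windows against 33.8%, and CCGCCC, the core of an Sp1 site, in 6 of 6 against 32.7%. The bases G and C made up 51.2% to 73.6% of the 6 windows, and the shares of all windows were not matched for this content. The E-box CACGTG stood in the window of Insig1 alone among the 6 and in 6.02% of all windows. A match of letters is a description and not a bound site, and TCACNCCA covers only 1 form of the element.

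The libraries held between 1640391 and 3866717 reads on genes. Date 2 was the deepest in each line, and date 3 had the most genes with a read (20675 in R1 and 20542 in HN). Htt, the deleted gene, had normalized counts (reads divided by the library's size factor) of 230, 257 and 199 in R1 and 18.3, 58.1 and 54.2 in HN on dates 1, 2 and 3. All 8 mESC markers examined were present in every library, with a summed normalized count of 12129 to 17914 in R1 and 12845 to 17304 in HN. Single markers differed between the lines in opposite directions, as given with the other markers below. Every one of the 8 sterol genes passed the filter on low values (a mean normalized count of at least 5), with 29 reads or more in each library.

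Per kilobase of exon, Hmgcs1, the cytosolic HMG-CoA synthase, had the highest mean level of the set in R1, 138 ± 40.6 normalized counts per kb (SD, n = 3), and 143 ± 53.6 in HN. Fdft1, squalene synthase, stood at 126 ± 42.8 in R1 and 143 ± 50.6 in HN. Cyp51, Insig1 and Sqle followed at 112 ± 44.2, 96.9 ± 31.5 and 76.3 ± 17.9 per kb in R1. Over the 6 libraries the ranges of neighbours in this order overlapped, and Hmgcs1 (98.4 or more) lay above Sqle (96.7 or less). A gap separated them from the other 3 genes. The lowest of the 6 libraries for Insig1, the lowest value of any of the 5, was at 51.8 per kb, and the highest for Srebf2 was at 38.6. Srebf2 had means of 26.9 ± 8.54 in R1 and 33.1 ± 6.42 in HN, Lss of 19.6 ± 5.98 and 14.99 ± 1.57, and Idi1 of 11.04 ± 3.60 and 9.63 ± 1.63. The ranges of Srebf2 and Lss overlapped, as did those of Lss and Idi1, and those of Srebf2 and Idi1 did not (21.3 or more against 14.6 or less). The exon lengths are those of GENCODE M21 on GRCm38. The library kit did not mark strand, and 18.3% of the exon bases of Fdft1 lie opposite Ctsb, 12.1% of those of Hmgcs1 opposite Gm48342 and 9.22% of those of Idi1 opposite Gm48574, so that the levels of these genes are less certain. Of the 50-base stretches, 26.5% in Fdft1, 25.3% in Idi1 and 11.6% in Hmgcs1 also occur in other genes, most often in Ctsb, Gm13502 and Gm48342, and 2.77% or less in the other 5 genes.

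**Figure D1:**
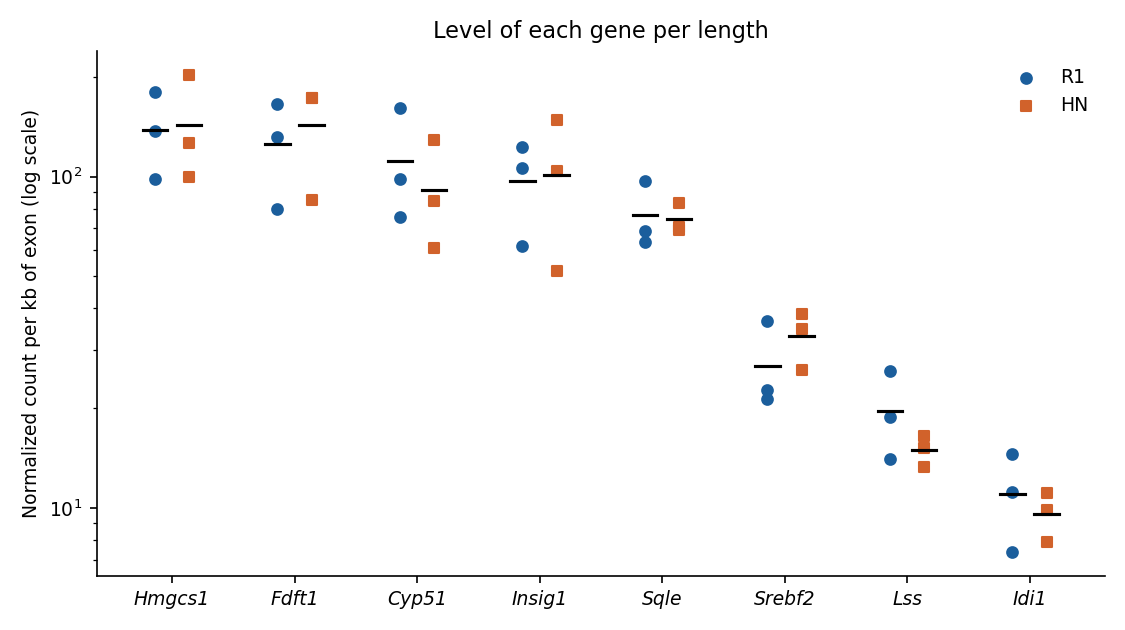
Normalized count per kb of exon (log axis) for each of the 8 genes, with 1 point per library and a bar at the mean of each line (n = 3). Hmgcs1, Fdft1, Cyp51, Insig1 and Sqle lie at or above 51.8 in every library, and Srebf2, Lss and Idi1 lie at or below 38.6. HN points of dates 1 and 3 coincide for Fdft1.

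The comparison of the lines asks whether loss of Htt goes with another level of the sterol genes in undifferentiated cells. None of the 8 genes passed in limma's test (0 of 8 at a Benjamini-Hochberg (BH) adjusted p under 0.05, and 0 at an unadjusted p under 0.05), where 0.245% of the 14276 tested genes passed. The libraries of the 2 lines overlapped for all 8 genes, where 10.8% of all tested genes did not overlap. edgeR and DESeq2 on the reads also passed 0 of 8 (0 at an unadjusted p under 0.05 in each). With the collection date as a block, 0 of 8 passed again by limma, edgeR or DESeq2 (3, 3 and 1 at an unadjusted p under 0.05), against 9.48% of all tested genes by limma. In limma the 3 genes were Srebf2, Lss and Cyp51, whose adjusted p over all alternatives ran from 0.0518, 0.0624 and 0.0553 up to 1.0. Of all 14276 tested genes, 3081, 3172 and 1500 had an unadjusted p under 0.05 with the block by limma, edgeR and DESeq2. The median log2 fold change of the set, HN minus R1 on the log2(normalized count + 1) scale, was -0.01, and that of all tested genes was -0.01.

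Srebf2 (chromosome 15, 82147181 to 82205379, plus strand of GRCm38) encodes SREBP2, the transcription factor of the pathway. Its normalized counts were 264, 153 and 163 in R1 and 277, 250 and 187 in HN on dates 1, 2 and 3. HN was the higher line on each date, with the widest gap on date 2, and the values of the lines interleaved. R1 averaged 193 ± 61.3 and HN 238 ± 46.1 (SD, n = 3), a log2 fold change of 0.32 (SE 0.25, BH-adjusted p = 1.0 by limma). With the date as a block, the standard error fell to 0.13 and the adjusted p was 0.106. The differences within dates 1, 2 and 3 were 0.07, 0.70 and 0.20 on the log2 scale.

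Insig1 (chromosome 5, 28071363 to 28078662, plus strand) encodes the retention protein that holds SREBP2 and Scap in the endoplasmic reticulum. It had normalized counts of 379, 191 and 329 in R1 and 459, 160 and 321 in HN. Date 2 was the lowest and date 1 the highest in each line, and the HN range enclosed the R1 range. The log2 fold change was -0.00 (SE 0.36, adjusted p = 1.0 by limma), and its 95% interval ran from -0.79 to 0.78. With the block the interval narrowed to -0.24 to 0.23.

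Hmgcs1 (chromosome 13, 119690379 to 119708260, plus strand) makes HMG-CoA from acetyl-CoA and acetoacetyl-CoA. Its normalized counts were 825, 452 and 629 in R1 and 932, 458 and 579 in HN. The lines were nearly equal on date 2, HN was above R1 on date 1 and below it on date 3. The log2 fold change was 0.03 (SE 0.28, 95% interval -0.59 to 0.64, adjusted p = 1.0 by limma).

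Idi1 (chromosome 13, 8885501 to 8892451, plus strand), the isomerase that supplies dimethylallyl diphosphate, was the lowest of the set. Its normalized counts were 51.1, 25.9 and 39.1 in R1 and 38.9, 27.6 and 34.7 in HN, from 29 to 48 reads per library, so that counting error is largest here. All HN values lay inside the R1 range. The log2 fold change was -0.15 (SE 0.32, adjusted p = 1.0 by limma).

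Fdft1 (chromosome 14, 63145150 to 63179578, minus strand), squalene synthase, commits isoprenoid units to sterols. It had normalized counts of 697, 338 and 558 in R1 and 729, 358 and 728 in HN. HN was higher on all 3 dates, by 0.06, 0.08 and 0.38 on the log2 scale, and the lines overlapped. The log2 fold change was 0.18 (SE 0.32, adjusted p = 1.0 by limma and 0.314 with the block).

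Sqle (chromosome 15, 59315077 to 59331192, plus strand), squalene epoxidase, catalyses the oxygen-dependent step before ring closure. Its normalized counts were 537, 353 and 380 in R1 and 462, 390 and 382 in HN. R1 was higher on date 1 and HN on date 2, and on date 3 the lines differed by 0.01 on the log2 scale. The log2 fold change was -0.02 (SE 0.21, 95% interval -0.47 to 0.43, adjusted p = 1.0 by limma), the narrowest interval of the set without the block.

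Lss (chromosome 10, 76531588 to 76557138, plus strand), lanosterol synthase, closes the sterol rings. Its normalized counts were 280, 152 and 204 in R1 and 178, 144 and 164 in HN. HN was below R1 on each date, most on date 1, and 2 of the 3 HN values lay inside the R1 range. R1 averaged 212 ± 64.6 and HN 162 ± 16.9 (SD, n = 3), a log2 fold change of -0.35 (SE 0.24, adjusted p = 1.0 by limma and 0.0854 with the block).

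Cyp51 (chromosome 5, 4081145 to 4104746, minus strand), lanosterol demethylase, takes the first step from lanosterol towards cholesterol. Its normalized counts were 710, 333 and 434 in R1 and 567, 269 and 371 in HN. HN was below R1 on each date by similar amounts, 0.32, 0.30 and 0.22 on the log2 scale, and the ranges overlapped because the dates differed more than the lines. R1 averaged 492 ± 195 and HN 403 ± 151 (SD, n = 3), a log2 fold change of -0.28 (SE 0.31, adjusted p = 1.0 by limma and 0.0680 with the block).

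The 95% intervals of the 8 genes, each taken alone, lay between -0.96 and 0.87 on the log2 scale without the block and between -0.62 and 0.58 with it. Within dates, the median difference of the set was -0.08, 0.05 and -0.08 on dates 1, 2 and 3, with 3 genes having a log2 fold change above 0 and 5 below it.

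**Figure D2:**
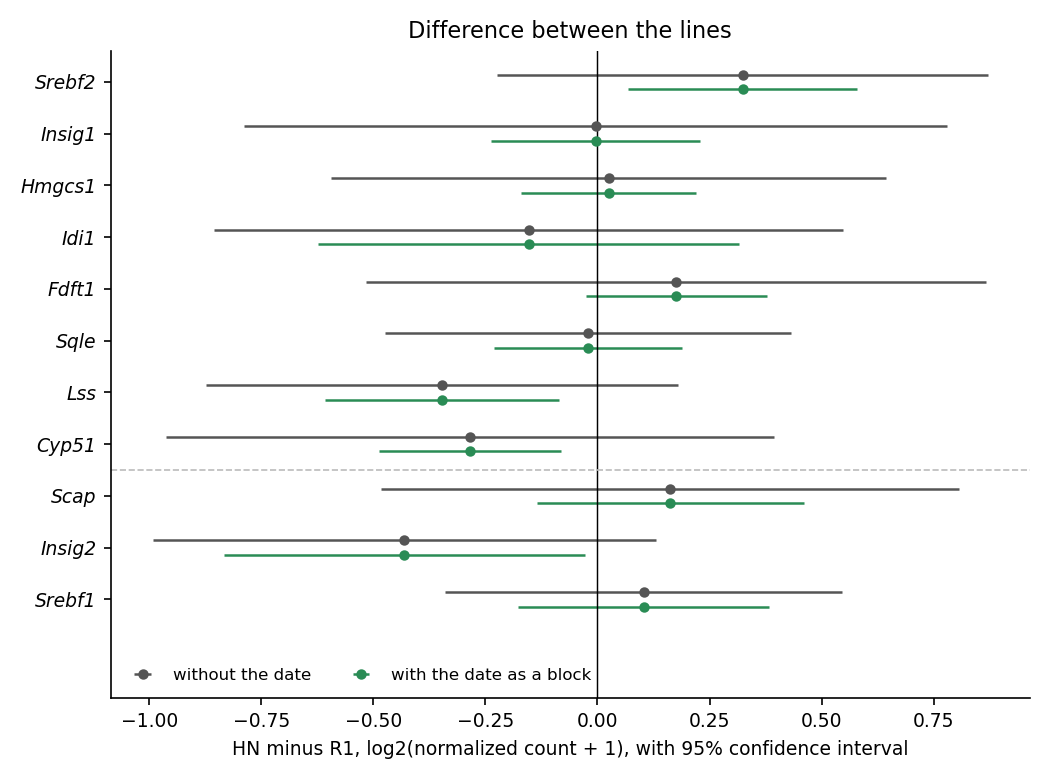
Difference between the lines (HN minus R1, log2(normalized count + 1)) with 95% confidence intervals, without the collection date (grey) and with it as a block (green), for the 8 genes above the dashed line and for Scap, Insig2 and Srebf1 below it. All 8 intervals without the block include 0, and with the block those of Srebf2, Lss and Cyp51 do not, before adjustment for multiple tests. With the block, 3081 of all 14276 tested genes had an unadjusted p under 0.05 by limma.

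The collection dates, which the lines share, were compared with the line held constant (limma's F test of the date). Of the 8 genes, 7 passed at a BH-adjusted p under 0.05, where 46.0% of all tested genes passed, so that a difference between dates was common in these libraries. The adjusted p was 1.01e-07 for Insig1 and for Fdft1, 1.85e-07 for Cyp51, 1.02e-06 for Hmgcs1, 0.00370 for Srebf2, 0.00984 for Lss and 0.0110 for Sqle. Idi1 did not pass (adjusted p = 0.0930). DESeq2's likelihood ratio test on the reads passed 4 of 8, losing Srebf2 (adjusted p = 0.0700), Sqle (0.0816) and Lss (0.123), and edgeR passed 7 of 8. Of all 14276 tested genes, 2619 passed by DESeq2 and 6845 by edgeR, against 6569 by limma. Without R1 replicate 1 the same 3 genes were lost (0.112, 0.285 and 0.119), and without R1 replicate 2 Sqle and Lss were (0.123 and 0.301). Without limma's variance trend 0 of 8 passed (5 at an unadjusted p under 0.05, adjusted p from 0.0655 for Cyp51 to 0.213 for Sqle), as did 0 of all tested genes (5326 at an unadjusted p under 0.05).

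The direction was shared by the set. All 8 genes were higher on date 1 than on date 2 in both lines, which held for 32.3% of all tested genes, and the order date 1, date 3, date 2 was seen in both lines for 6 of 8, against 3.16% of all tested genes. The lines shared some date order for the same 6 of 8, against 42.3% of all tested genes. In R1 all 8 genes had the order date 1, date 3, date 2. That order and the comparison of dates 1 and 2 were not planned in advance and follow what these 8 genes show. The shares beside them are therefore a description and not a test. The exceptions, Srebf2 and Sqle, had their lowest HN value on date 3 (187 and 382) and not on date 2 (250 and 390). The summed normalized counts of the 8 genes were 3743, 1997 and 2736 in R1 and 3643, 2056 and 2767 in HN on dates 1, 2 and 3, so that the sums of the lines lay close to each other on each date and far apart between dates.

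In size, Insig1 was 1.99-fold higher on date 1 than on date 2 in R1 and 2.86-fold higher in HN. Cyp51 was 2.13-fold and 2.10-fold higher, Fdft1 2.06-fold and 2.04-fold, and Hmgcs1 1.83-fold and 2.04-fold. These 4 genes had folds of similar size in the lines, apart from Insig1. Idi1 was 1.97-fold higher in R1 and 1.41-fold in HN, Lss 1.85-fold and 1.23-fold, Srebf2 1.72-fold and 1.11-fold, and Sqle 1.52-fold and 1.19-fold, all 4 with the smaller fold in HN. With 1 library per line and date, whether a date difference itself differed between the lines could not be tested. The median log2 difference between dates 1 and 2 was 0.92 in R1 and 0.75 in HN for the set, and -0.02 and -0.03 for all tested genes. Between dates 1 and 3 the medians of the set were 0.42 and 0.39, against 0.08 and 0.01.

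**Figure D3:**
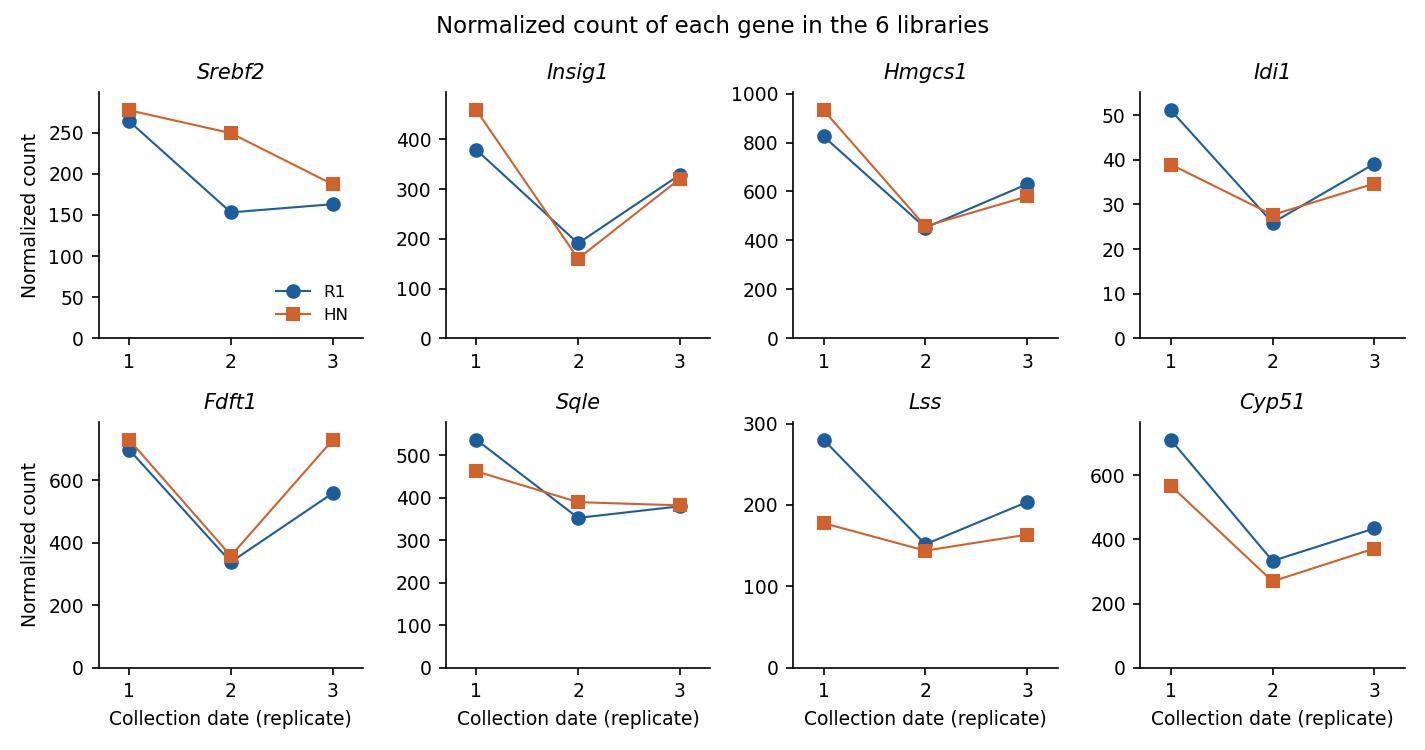
Normalized count of each of the 8 genes on the 3 collection dates, with 1 point per library (R1 circles, HN squares) and lines joining the libraries of a line. All 8 genes are higher on date 1 than on date 2 in both lines, and Srebf2 and Sqle in HN are lowest on date 3.

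**Figure D4:**
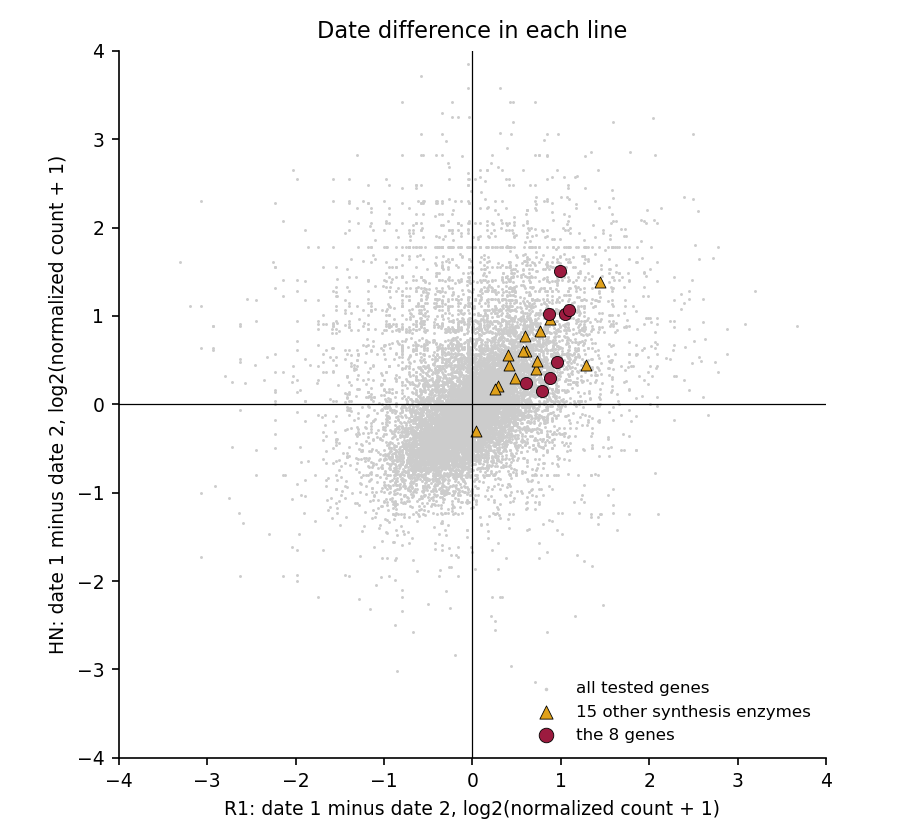
Date 1 minus date 2 on the log2(normalized count + 1) scale in R1 (horizontal) and HN (vertical) for all tested genes (grey), 15 other enzymes of cholesterol synthesis (triangles) and the 8 genes (circles). The 8 genes lie in the quadrant where both differences are above 0, as do 14 of the 15 other enzymes.

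Other properties of the libraries also differed between dates. The reads on genes were most on date 2 in each line, where the summed normalized count of the 8 genes was lowest. With scaling to total reads in place of the deposited size factors, the median difference of the set between dates 1 and 2 was 0.96 in R1 and 0.87 in HN. The medians of all tested genes were then 0.03 and 0.08. The summed mESC markers (8 of 8 tested, none at 0) were 17914, 15742 and 12129 in R1 and 17304, 15812 and 12845 in HN on dates 1, 2 and 3. Of these 8 genes, 5 had a log2 fold change above 0 and 3 below it. The lines did not overlap for 3 of them (10.8% of all tested genes). By limma with the block, 4 were higher in HN and 1 lower (5.46% and 4.02% of all tested genes). The primitive endoderm markers (5 of 5 tested, none at 0) were highest on date 3 (142 in R1 and 129 in HN, with 31.8 to 56.0 on the other dates). The mesoderm markers (4 of 4 tested, none at 0) ran from 78.2 to 168 in R1 and from 154 to 261 in HN, highest on date 2. The neural markers (4 of 4 tested, none at 0) ran from 249 to 308 and from 151 to 237. Tubb3 made up most of this sum (mean 201 in R1 and 117 in HN). Of the 4 neural genes, 2 had a log2 fold change above 0 and 2 below it. The fibroblast markers (4 of 5 tested, Acta2 at 0 in 1 library) ran from 47.3 to 119 and from 24.8 to 63.9, and the trophoblast markers (3 of 4 tested, Elf5 at 0 in 1 library) from 115 to 187 and from 115 to 170, both highest on date 3. Pdgfrb was the largest part of the fibroblast sum (mean 60.5 in R1 and 21.6 in HN). Of the 4 tested fibroblast genes, 1 had a log2 fold change above 0 and 3 below it. None of the 6 marker sums had the order date 1, date 3, date 2 in both lines, and their part in the date difference was not tested. In such bulk libraries, fewer cells of a kind and less RNA per cell cannot be told apart.

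Of the other enzymes of synthesis, 13 of 15 also differed between the dates, where 46.0% of all tested genes did. Of 6 further enzymes of the mevalonate and isoprenoid steps, 5 passed the test of the date, and 5 had the order date 1, date 3, date 2 in both lines. Of 9 further enzymes after lanosterol, 8 passed and 4 had that order, which 3.16% of all tested genes had. Msmo1, the methylsterol oxidase listed under its older symbol Sc4mol, had 945, 347 and 588 in R1 and 731, 279 and 475 in HN (adjusted p of the date = 6.16e-10).

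In the list of uptake and lysosomal release, 8 of 11 tested genes passed the test of the date (46.0% of all tested genes), and 3 had the order of the set (3.16%).

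Of 10 genes of the machinery that processes SREBPs, 3 passed the test of the date (46.0% of all tested genes) and 0 had the order of the set (3.16%). Scap had 84.1, 138 and 89.0 in R1 and 96.1, 172 and 87.7 in HN, highest on date 2 in each line (adjusted p of the date = 6.84e-04). Srebf1, the relative of Srebf2 that acts mostly on fatty acid genes, had 153, 129 and 133 in R1 and 130, 152 and 165 in HN (adjusted p of the date = 0.898). Insig2, the relative of Insig1, had 56.4, 50.3 and 64.7 in R1 and 42.6, 35.4 and 48.7 in HN (adjusted p of the date = 0.347), and the lines did not overlap. Its log2 fold change was -0.43 (SE 0.26, adjusted p = 1.0, and 0.193 with the block). The median difference between dates 1 and 2 over both lines was 0.83 for the set (0.42 to 1.25), 0.59 for the mevalonate list, 0.48 for the sterol steps, 0.46 for uptake and -0.07 for SREBP processing, with the middle 50% of all tested genes between -0.29 and 0.33. The 3 tested oxysterol enzymes had a higher median than the set, 1.04 (-0.20 to 1.09). Efflux and storage stood at 0.29, fatty acid synthesis at 0.27 and the isoprenoid branches at -0.42. Of the 3 oxysterol enzymes, 0 had the order of the set in both lines. Between dates 1 and 3 their medians were -1.32 in R1 and -0.35 in HN, against 0.42 and 0.39 for the set. Their mean levels per kb lay below that of Idi1, the lowest of the set, in each line. Counting error is therefore large for them. Whether these lists differ from each other was not tested.

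**Figure D5:**
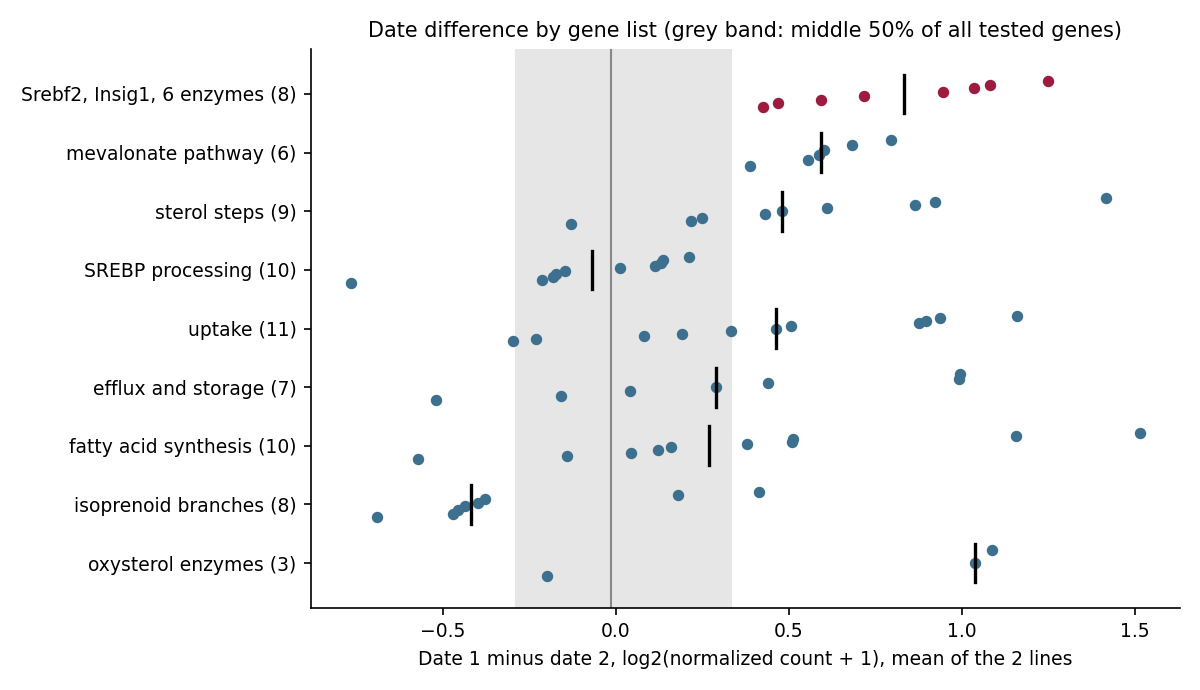
Date 1 minus date 2 on the log2(normalized count + 1) scale, as the mean of the lines, with 1 point per gene and a bar at the median of each list; the 8 genes are in red at the top, and the grey band is the middle 50% of all tested genes. The 8 genes lie between 0.42 and 1.25, above the band, and the median of SREBP processing is -0.07.

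Between the lines, 0 of 64 tested genes of the wider pathway passed without the block by limma, edgeR or DESeq2 (4 at an unadjusted p under 0.05 in each). Of all 14276 tested genes, 35, 34 and 94 passed in these tests, and 843, 876 and 695 had an unadjusted p under 0.05. With the collection date as a block 13 of the 64 passed by limma, 7 higher and 6 lower in HN. Of all tested genes, 5.46% were higher and 4.02% lower. By edgeR with the block 17 passed, where 1605 of all 14276 tested genes did. By DESeq2 with the block 4 passed, where 480 of all tested genes did. Among the synthesis enzymes next to the set in the pathway, 2 were higher with the block and 3 lower. Ebp, the sterol isomerase, had a log2 fold change of 0.44 (adjusted p = 0.0276 by limma with the block). Pmvk, phosphomevalonate kinase, had normalized counts of 264, 161 and 204 in R1 and 157, 119 and 110 in HN without overlap, a log2 fold change of -0.68 (adjusted p = 4.11e-04 with the block and 0.620 without). Mvd, the decarboxylase after it, was at -0.47 (0.0324) and Msmo1 (Sc4mol) at -0.33 (0.0244). Enzymes of the same route thus passed in opposite directions with the block, and the 8 genes of the set, with log2 fold changes of -0.35 to 0.32, passed in neither.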

How the data were processed

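The data were polyA-selected RNA libraries (TruSeq RNA v2, which does not mark strand; paired-end 50-base reads) of 3 R1 and 3 HN cultures. The authors mapped reads with STAR (mm10/GRCm38), dropped duplicates (Picard), counted exonic reads per gene (HTSeq) and scaled the counts by size factors from DESeq2. The deposited values are this normalized signal. Versions and gene annotation are not given in the sources used here. Divided by the value of 1 read, 100% of values came out whole (within 0.01), so reads were recovered for depth, edgeR and DESeq2. Unused per-sample columns numbered 0. In 27 lines a date stands in place of a gene name, and these are named nowhere. Msmo1 was read under its older symbol Sc4mol.

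Values were analysed as log2(normalized count + 1) with limma 3.58.1 (variance trend) in R 4.3.3, over 14276 genes with a mean of at least 5, and p-values were BH-adjusted over all of them. A gene passed at an adjusted p under 0.05; the rule of an absolute log2 fold change above 1 was an alternative. limma was the main test because the values are normalized; edgeR 4.0.16 and DESeq2 1.42.0 were run on the recovered reads as alternatives. The main fit has no block, since the description of the differential test in the study names none, although it states that the RNA came from batches of different dates. With the block 2 residual degrees of freedom remain, against 4 without it. The limma fit with the block was not run without the variance trend, so how far its p-values depend on that trend was not tested. The pairing comes from the collection dates in the labels, and across genes (not independent replicates) the centred log2 values of R1 and HN correlated at 0.250, 0.688 and 0.768 on dates 1, 2 and 3. An exact permutation test of 3 against 3 libraries cannot go below p = 0.1. The scripts were tested on simulated data.

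The 8 genes, the 66 further pathway genes (64 tested) and the marker lists were chosen with earlier results of these data known. Beside the 8 genes, Htt, Scap, Srebf1 and Insig2, the genes named are up to 12 of the pathway that passed with or without the block, by smallest p, and the 10 genes with a mean of at least 50 whose profile correlated best with that of the set. Other named genes were chosen after their values were seen, and some genes that the rule names are not reported here. Positions and exon lengths are from GENCODE M21, and promoter sequences from RefSeq, both GRCm38. Depth was 1640391 to 3866717 reads per library. Reads without molecular identifiers need not be independent molecules.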

Additional observations from a re-analysis of the deposited data

How the results depend on the processing

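Of the 8 genes, 0 passed between the lines in any alternative (pseudocounts, filters, scaling, tools, replicate block, leaving out libraries), with 0 to 3 at an unadjusted p under 0.05. Signs near 0 were not stable. Insig1 went from -0.00 to 0.0722 with edgeR and TMM, 0.0161 with edgeR and the replicate block, 0.0610 with edgeR and the deposited size factors, 0.0624 with DESeq2, 0.00224 with DESeq2 and the replicate block and 0.0118 without both libraries of date 3, which was chosen after seeing the data. Hmgcs1 went from 0.03 to -0.0150 with quantile normalization and -0.00775 with scaling to total reads. When 1 library at a time was left out, the difference ranged from -0.34 to 0.41 for Insig1, -0.26 to 0.25 for Hmgcs1, -0.41 to 0.0682 for Idi1, -0.12 to 0.52 for Fdft1, -0.14 to 0.16 for Sqle and -0.56 to 0.0157 for Cyp51. It kept its sign for Srebf2 (0.18 to 0.57) and Lss (-0.56 to -0.12). The causes were not tested. Of the pathway genes, 0 passed without the block, 13 with the replicate block, 17 with edgeR and the replicate block, 4 with DESeq2 and the replicate block, 4 at an unadjusted p under 0.05 and 1, Apoe, with the replicate block and an absolute log2 fold change above 1 (chosen after seeing the data). Of all tested genes 35 passed, 1354 with the replicate block, 1605 with edgeR and the block, 94 with DESeq2, 480 with DESeq2 and the block, 0 without the variance trend (767 unadjusted), 843 unadjusted, 278 with the block and the fold rule, and 9 (without R1 replicate 1) to 56 (without R1 replicate 3) with a library left out, 13 of them without HN replicate 1. Htt stayed at -2.52 and did not pass without the variance trend (adjusted p = 0.325) or without R1 replicate 1 (0.110); with a library left out it ranged from -2.81 to -2.002. The date passed 7 of the 8 genes, 4 with DESeq2, 0 without the variance trend, 8 with scaling to total reads, where Idi1 passed (adjusted p = 0.0496), and 4 to 7 with a library left out, 4 of them without R1 replicate 1. Of all genes the date passed 6569, 2619 with DESeq2, 4090 of those with a mean of at least 50, 0 without the variance trend, 2862 without date 3, and 3270 to 7661 with a library left out, lowest without HN replicate 2 and 3594 without R1 replicate 2. Where a fit leaves out a library, a date has 1 library and is assumed to vary like the others. Idi1, with a mean under 50, had no value at that filter. At 29 to 48 reads per library for Idi1, counting error limits what can be seen.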

Other observations

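Cholesterol efflux and storage held the pathway gene with the largest difference between the lines. Apoe, the apolipoprotein that carries cholesterol out of cells, had normalized counts of 2012, 1158 and 559 in R1 and 5262, 2311 and 2235 in HN on dates 1, 2 and 3. The lines did not overlap, and the log2 fold change was 1.46 (SE 0.43, BH-adjusted p = 0.434 by limma without the block and 5.18e-12 with it). The fit with the block has 2 residual degrees of freedom and uses limma's variance trend, without which it was not run. Nr1h2, which encodes the sterol receptor LXR beta, had a log2 fold change of 0.50 (0.00798 with the block). Of the 7 genes of this list 2 were higher with the block, Apoe and Nr1h2, against 5.46% of all tested genes.

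In fatty acid synthesis, 2 of 10 genes were higher in HN with the block and 3 lower, against 5.46% and 4.02% of all tested genes. Elovl6, a fatty acid elongase, was at 0.49 (adjusted p = 2.04e-04 by limma with the block) and Scd2, a desaturase, at 0.30 (0.0199). Acss2, which makes acetyl-CoA from acetate, was at -0.68 (0.00684) and the desaturase Fads1 at -0.49 (0.00911). Acss2 also shared the date order of the sterol genes, with 142, 51.0 and 102 in R1 and 94.9, 31.2 and 59.6 in HN. Of the 8 genes of the isoprenoid branches 1 was higher with the block (5.46% of all tested genes), Ggps1, geranylgeranyl diphosphate synthase, with 139, 114 and 105 in R1 and 184, 175 and 172 in HN (log2 fold change 0.57, 0.00345 with the block). That list had a median date 1 minus date 2 difference of -0.42 over both lines, below the middle 50% of all tested genes, where the 8 sterol genes lay above it. The 3 tested oxysterol enzymes had log2 fold changes between the lines of -0.66 to -0.16, and 2 of them passed the test of the date, where 46.0% of all tested genes passed.

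The 10 genes whose log2 profile over the 6 libraries was most like the mean standardized profile of the 8 sterol genes, of 7636 with a mean of at least 50, held none of the pathway lists. Pgm2 had the highest Pearson correlation (0.996), with normalized counts of 258, 105 and 155 in R1 and 215, 123 and 156 in HN, followed by Bmf (0.994), Sppl2a (0.990), Chid1 (0.988) and Focad (0.987). Smim14, Zmym6, Blvrb, Gnb2l1 and 9030624J02Rik had values of 0.978 to 0.985. All 10 had the order date 1, date 3, date 2 in both lines. The mean profile used to pick them has that order in both lines, so the shared order follows from the choice and is not a separate result. The correlations are a description over 6 libraries that share dates and depth, and the highest of many candidates.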
